A study of Homo sapiens with 6 samples.

Results

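The comparison described here is the passage from 4 h to 6 h of release with the kinase ATR inhibited. It rests on 5 of the 17 sequenced libraries of the series: 2 libraries of 6h_ATRi (experiments A and B) and 3 of 4h_ATRi (experiments A, B and C), chosen by their column names. A C library at 6 h under inhibition is not analysed here. The cells were RPE-1, a telomerase-immortalised human line from the retinal pigment epithelium, held at the start of S phase with 2 mM thymidine for 24 h and let go by 3 washes. For 6h_ATRi the inhibitor AZ20 (2 µM) was present for 5 h, from 1 h after the wash until collection at 6 h. For 4h_ATRi the same dose was present for 3 h, from 1 h after the wash until collection at 4 h. The passage without inhibition (6h_DMSO and 4h_DMSO, 3 libraries each, solvent over the same hours) is used to set the values in context. All these groups carry the thymidine block, and all come from 1 cell line. The design text of the series places 4 h in late S phase and 6 h in G2.

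ATR is a kinase that is active during DNA replication and restrains the kinases that drive cells into mitosis. Cyclin B, CDK1, PLK1 and the Aurora kinases build up in G2, largely through transcription by MYB-MuvB and FOXM1. Their products assemble the spindle, separate chromosomes and divide the cell, and the anaphase-promoting complex then removes many of them. In an unperturbed cycle such transcripts climb from S phase into G2 while those of DNA replication decline.

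The count table gives whole reads per annotated feature. The 5 libraries held 1793661 to 2282302 counts. Each level below is in CPM (reads relative to the TMM-adjusted library total), where 1 CPM was about 2 reads. The levels of tissue and cell type markers in this paragraph are the exception: they are CPM of the unadjusted library total. Of the 13510 features tested, 7017 share exonic sequence with a feature annotated on the other strand, and these took 70.6 to 80.6% of the counts. In 1496 of 1962 pairs (76.2%) of a coding gene and a noncoding feature opposite to it, the noncoding feature had more counts. A count on an overlapped feature can therefore come from the gene named or from its partner on the other strand. Every such feature is uncertain as to the gene, for instance AC008870.3, which lies opposite PLK1, and its partner or partners are named with it. The 6277 features with no annotated overlap took 14 to 16.9% of the counts. How strand was handled was not given, so a low count on them may not reflect the level of the RNA. The labelled tissue was checked against its markers: RPE65, the isomerase of the visual cycle, was at 0 in all 5 libraries, and MERTK, TTR and LRAT were at or near 0. SERPINF1, a secreted factor of that tissue with no overlap, had 25.5 and 23.4 CPM in 6h_ATRi, against 10.5, 20 and 10.4 CPM in 4h_ATRi, and the pigment gene TYRP1 (overlaps LURAP1L-AS1) had 5.00 CPM or less. Keratin 8, vimentin and fibronectin, known in this line, were present (KRT8, which overlaps KRT18, at 2470 to 4500 CPM, VIM, which overlaps VIM-AS1 and AL133415.1, at 1070 to 1290 CPM, and FN1 at 1620 to 2660 CPM). The epithelial genes CDH1 (overlaps AC099314.1) and EPCAM were at 0 and at 0.558 CPM or less. RLBP1 was at 1.67 CPM or less, and MITF at 6.60 CPM or less. BEST1 (11500 to 14700 CPM) and PMEL (293 to 413 CPM) overlap FTH1 and CDK2. Markers of blood, nerve, endothelium, liver and muscle summed to 8.96 to 15.9 CPM, with CD3E, HBB, CDH5, ALB, APOA1, ACTA1 and MYH2 at 0. With strand handling not given, counts at or near 0 cannot show that the RNA of a marker was absent. The part of other cells in the results was not tested.

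Between 4 h and 6 h under inhibition, 110 of 13510 features rose (0.814%) and 57 fell (0.422%). A call is an adjusted p under 0.05 in edgeR's quasi-likelihood test, with Benjamini-Hochberg adjustment over all features and the experiment letter as a block. All 110 were higher and all 57 were lower at 6 h within experiment A and within experiment B, signs that the calls themselves favour. Both 6 h libraries lay above all 3 libraries of 4 h for 105 of the 110, against 10.1% of all features, and below all 3 for 46 of the 57, against 9.55% of all features. Across the 2479 features of at least 50 CPM, the change in A and the change in B had a correlation of 0.481, a description over features that share libraries. The calls rest on the pairing: without the block, 4 features were called. These were NAV2-AS2, TCP11L1, HSPA12A-AS1 and MSC-AS1. The number of calls also fell to 36 without the A library of 6h_ATRi, to 49 without its B library, to 50 without the A library of 4h_ATRi and to 76 without its C library. It was 194 without the B library of 4h_ATRi.

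**Figure D1:**
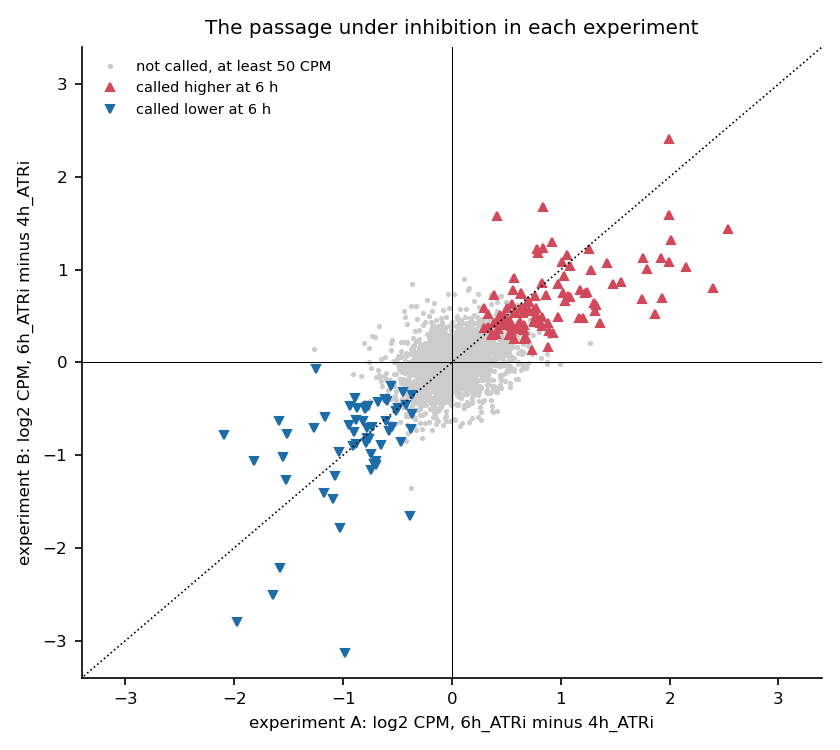
Change in log2 CPM from 4h_ATRi to 6h_ATRi in experiment A (horizontal) and experiment B (vertical). Points are features: grey for those of at least 50 CPM that were not called, red for the 110 called higher at 6 h and blue for the 57 called lower. The called features lie at the upper right and lower left, and the dotted line marks equal change.

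The deposited table of the authors holds a comparison of 4 h over 6 h under inhibition, and which libraries entered it is not stated, so that it may rest on other libraries than the 5 used here. The authors' deposited table calls 27 of 5957 genes (0.453%), of which 17 are higher and 10 lower at 6 h. All 27 were called here in the same direction, and they make up 16.2% of the calls. The smallest adjusted p in the authors' deposited table belongs to NAV2-AS2, at 1.58e-05 with a log2 value of -1.08 for 4 h over 6 h. It comes from the same series and is not independent of the counts.

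Among the gene lists the G2 and mitosis list, the largest, held the most calls, mainly on features opposite to its genes. Of 55 features opposite to a gene of the list, 12 rose and 0 fell, where 1.34% of all overlapped features rose. Their median log2 change was 0.15, and 39 of 55 were positive. Of the 124 genes of the list that were tested (of 132), 3 rose (CDCA3, PKMYT1 and UBE2S) and 1 fell (NEDD1). Over all features 0.814% rose and 0.422% fell. Of the 124 genes 85 were positive, with a median of 0.17. The median over all 13510 features was -0.0038. In RNA from a mass of cells, a larger share of cells in G2 and more RNA per cell cannot be told apart.

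Among regulators of mitotic entry, the features opposite PLK1 rose. PLK1 is the polo-like kinase that helps activate CDK1 at mitotic entry. AC008870.3, opposite PLK1, had 1010 and 735 CPM in 6h_ATRi A and B, against 632, 610 and 471 CPM in 4h_ATRi A, B and C. Both 6 h libraries lay above every 4 h library, and the log2 change was 0.54 ± 0.11 (SE, adjusted p = 0.00192, edgeR). The call of AC008870.3 was lost without the A library of either time, with an adjusted p of up to 0.169 (edgeR). ERN2, which overlaps PLK1 and AC012317.1, had 131 and 110 CPM at 6 h, against 84.8, 81.7 and 56.5 CPM at 4 h (log2 0.66 ± 0.18, adjusted p = 0.0315, edgeR). The ERN2 call was kept only without the B library of 4h_ATRi among the 5 leave-outs, with an adjusted p of up to 0.432 (edgeR). PLK1 itself, with 38.6 and 28 CPM at 6 h and 30.5, 38.3 and 25.6 CPM at 4 h, had overlapping groups and a log2 change of 0.00 ± 0.38.

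PKMYT1, the membrane-bound kinase that holds CDK1 inactive, rose as well. It had 214 and 201 CPM in 6h_ATRi, against 124, 85.3 and 120 CPM in 4h_ATRi, a log2 change of 0.98 ± 0.20 (adjusted p = 0.0122, edgeR) with no overlap between the times. On the other strand PAQR4 and KREMEN2 had log2 changes of 0.15 and -0.16 and did not pass (adjusted p 0.812 and 0.934, edgeR). PKMYT1 overlaps both. Its call was lost without either B library, without the A library of 4h_ATRi and without its C library, with an adjusted p of up to 0.178 (edgeR). CDCA3, a mitotic entry factor that helps remove WEE1, had 106 and 152 CPM at 6 h, against 51.5, 90.3 and 51.3 CPM at 4 h. Each 6 h library was above all 4 h libraries, and the log2 change was 0.99 ± 0.17 (adjusted p = 2.78e-05, edgeR). CDCA3 overlaps GNB3, and its call held with each of the 5 libraries left out in turn. GNB3 had 272 and 231 CPM at 6 h, against 196, 228 and 150 CPM at 4 h. Its log2 change of 0.37 did not pass (adjusted p = 0.269, edgeR).

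The spindle and centrosome group had 7 of its 19 opposite-strand features called higher, where 1.34% of all overlapped features rose, with a median log2 of 0.38. Of its 36 genes 0 rose and 1 fell (edgeR); before adjustment 5 had p under 0.05 on the higher side and 2 on the lower. SAPCD2 orients the spindle. It did not pass on its own strand (log2 0.94, adjusted p = 0.161, edgeR), while both features opposite to it rose. AL807752.3 had 408 and 324 CPM at 6 h, against 224, 196 and 154 CPM at 4 h, a 1.84-fold difference (log2 0.88 ± 0.13, adjusted p = 2.93e-07, edgeR). AL807752.2 had 137 and 106 CPM at 6 h, against 76.6, 57.9 and 52.7 CPM at 4 h (log2 0.93). Both calls held with each of the 5 libraries left out. GPSM2, a spindle orientation gene, had a log2 change of -0.11 on its own strand (adjusted p = 0.827, edgeR). CLCC1, opposite GPSM2, had 714 and 619 CPM at 6 h, against 450, 484 and 328 CPM at 4 h (log2 0.59 ± 0.11, adjusted p = 3.04e-04, edgeR). Its adjusted p was 0.0555 without the A library of 6h_ATRi.

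PRC1, a protein that bundles microtubules between the separating chromosomes, lies opposite PRC1-AS1. PRC1 itself had a log2 change of 0.03 (adjusted p = 0.98, edgeR). PRC1-AS1 had 1540 and 1240 CPM in 6h_ATRi, against 1010, 937 and 848 CPM in 4h_ATRi, with no overlap (log2 0.54 ± 0.10, adjusted p = 1.27e-04, edgeR). That call also held with each library left out. HMMR-AS1, opposite the spindle assembly gene HMMR, averaged 244 ± 30.6 CPM at 6 h and 146 ± 23.2 CPM at 4 h (SD, n = 2 and 3, log2 0.67, adjusted p = 6.08e-04, edgeR). The HMMR-AS1 call was lost without the A library of 6h_ATRi. HMMR itself had a log2 change of 0.21 (adjusted p = 0.931, edgeR). MYH11, which overlaps AF001548.1, AF001548.2 and the dynein partner NDE1, and AL138789.1, opposite DEPDC1, had log2 changes of 0.50 and 0.46. For MYH11 the times overlapped: the lower 6 h library, at 480 CPM, was under the B library of 4 h, at 502 CPM. The MYH11 call was lost without the A library of either time and without the C library of 4h_ATRi. NDE1 itself had a log2 change of -0.14 (adjusted p = 0.959, edgeR).

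Of 19 genes of cytokinesis and of the anaphase-promoting complex 1 rose, UBE2S, where 0.814% of all features rose. Of 12 features opposite to them 4 rose, PRC1-AS1 among them, where 1.34% of all overlapped features rose. AC002563.1, opposite the cytokinesis kinase CIT, averaged 199 ± 19.7 CPM at 6 h and 118 ± 19.8 CPM at 4 h (log2 0.70, adjusted p = 8.7e-04, edgeR). Its call was lost without the A library of 6h_ATRi. MATCAP2, opposite anillin (ANLN), a scaffold of the cleavage furrow, averaged 629 ± 79.5 CPM at 6 h and 488 ± 36.4 CPM at 4 h (log2 0.40, adjusted p = 0.0333, edgeR). MFSD12 overlaps HMG20B, AC005786.3, TEKTIP1 and FZR1, an activator of the anaphase-promoting complex. MFSD12 averaged 406 ± 6.17 CPM at 6 h and 298 ± 35.1 CPM at 4 h (log2 0.44, adjusted p = 0.0247, edgeR). On their own strand CIT, ANLN and FZR1 had log2 changes of 0.16, 0.09 and 0.13 and did not pass (adjusted p 0.854 to 0.935, edgeR). The calls of MATCAP2 and MFSD12 were each kept only without the B library of 4h_ATRi among the 5 leave-outs. UBE2S, the enzyme that extends ubiquitin chains for that complex, has no overlapping gene. UBE2S had 208 and 228 CPM in 6h_ATRi, against 149, 160 and 130 CPM in 4h_ATRi, with no overlap and a log2 change of 0.51 ± 0.14 (adjusted p = 0.0265, edgeR). With any 1 of the 5 libraries left out the adjusted p of UBE2S lay between 0.0508 and 0.419 (edgeR).

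NEDD1, which brings the microtubule nucleator to the centrosome, was called lower at a handful of reads. It had 2 and 0 reads in 6h_ATRi, against 16, 13 and 22 reads in 4h_ATRi (adjusted p = 0.00402, edgeR), and without the B library of 6h_ATRi the adjusted p was 0.351. No fold change is given for it.

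Of the 4 called genes of the list (CDCA3, PKMYT1, UBE2S and NEDD1), 3 matched a promoter entry: CDCA3, UBE2S and NEDD1. They are shown because genes of G2 and mitosis are known to share a pair of short elements: the cell cycle homology region bound by MuvB (searched as TTTGAA or TTCGAA) and the CCAAT box bound by NF-Y. The windows are RefSeq sequences on GRCh38.p14, from 250 bases before to 50 bases after the annotated start, 5′ to 3′ along the gene, with matches on either strand in capitals. A CCAAT box on the reverse strand reads ATTGG. NEDD1 lies at chr12:96907007-96907306 (plus strand), UBE2S at chr19:55407739-55408038 (minus strand) and CDCA3 at chr12:6851237-6851536 (minus strand).
NEDD1: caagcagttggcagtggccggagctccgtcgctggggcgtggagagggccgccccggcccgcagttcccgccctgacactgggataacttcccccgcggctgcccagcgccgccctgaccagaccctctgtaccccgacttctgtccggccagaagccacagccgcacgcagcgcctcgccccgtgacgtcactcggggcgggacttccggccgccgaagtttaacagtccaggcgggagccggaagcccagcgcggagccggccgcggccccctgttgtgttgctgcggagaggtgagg
UBE2S: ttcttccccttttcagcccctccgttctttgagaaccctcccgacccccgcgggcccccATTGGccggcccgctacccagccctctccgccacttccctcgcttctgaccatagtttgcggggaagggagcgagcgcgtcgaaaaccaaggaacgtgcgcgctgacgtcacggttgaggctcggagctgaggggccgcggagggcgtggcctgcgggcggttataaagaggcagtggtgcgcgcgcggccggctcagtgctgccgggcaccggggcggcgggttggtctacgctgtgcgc
CDCA3: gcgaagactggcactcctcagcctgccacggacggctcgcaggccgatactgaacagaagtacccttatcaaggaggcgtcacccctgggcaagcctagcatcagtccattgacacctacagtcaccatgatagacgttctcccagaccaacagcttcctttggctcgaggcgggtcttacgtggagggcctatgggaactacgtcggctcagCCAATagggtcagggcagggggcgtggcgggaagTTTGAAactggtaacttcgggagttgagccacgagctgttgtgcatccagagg

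The CDCA3 window held both elements, with CCAAT beginning at base 214 and TTTGAA at base 248 of the 300, and the UBE2S window held a reverse CCAAT box at base 60. The NEDD1 window held neither string. TTTGAA or TTCGAA occurred in 74 of the 111 promoters found for the G2 and mitosis list (66.7%), and in 4539 of 27305 promoters of all genes (16.6%). CCAAT occurred in 72 of those 111 (64.9%) and in 35.7% of all promoters. These are matches of letters, not measured binding.

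The best known G2 and mitosis genes were not called on their own strand. Cyclin B1 (CCNB1) had a log2 change of 0.52, Aurora kinase A (AURKA) 0.91, the anaphase activator CDC20 0.50, KIF20A (overlaps BRD8 and CDC23) 0.45, CDC25B 0.42, CDC25C (overlaps FAM53C) 0.36, the transcription factor FOXM1 (overlaps ITFG2) 0.35, CCNB2 0.32, the centromere motor CENPE 0.30 and CENPF 0.26. CDK1 had 0.06, KIF14 -0.06, WEE1 -0.13 and cyclin A2 (CCNA2, overlaps EXOSC9) -0.18. AURKA had 15.1 and 18.9 CPM at 6 h, against 10, 7.75 and 9.97 CPM at 4 h, without overlap, at an adjusted p of 0.349 (edgeR). AURKA had 17 to 35 reads per library. The strand limit given above for features with no overlap holds for AURKA, CCNB1, CDC20 and CDK1 too.

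**Figure D2:**
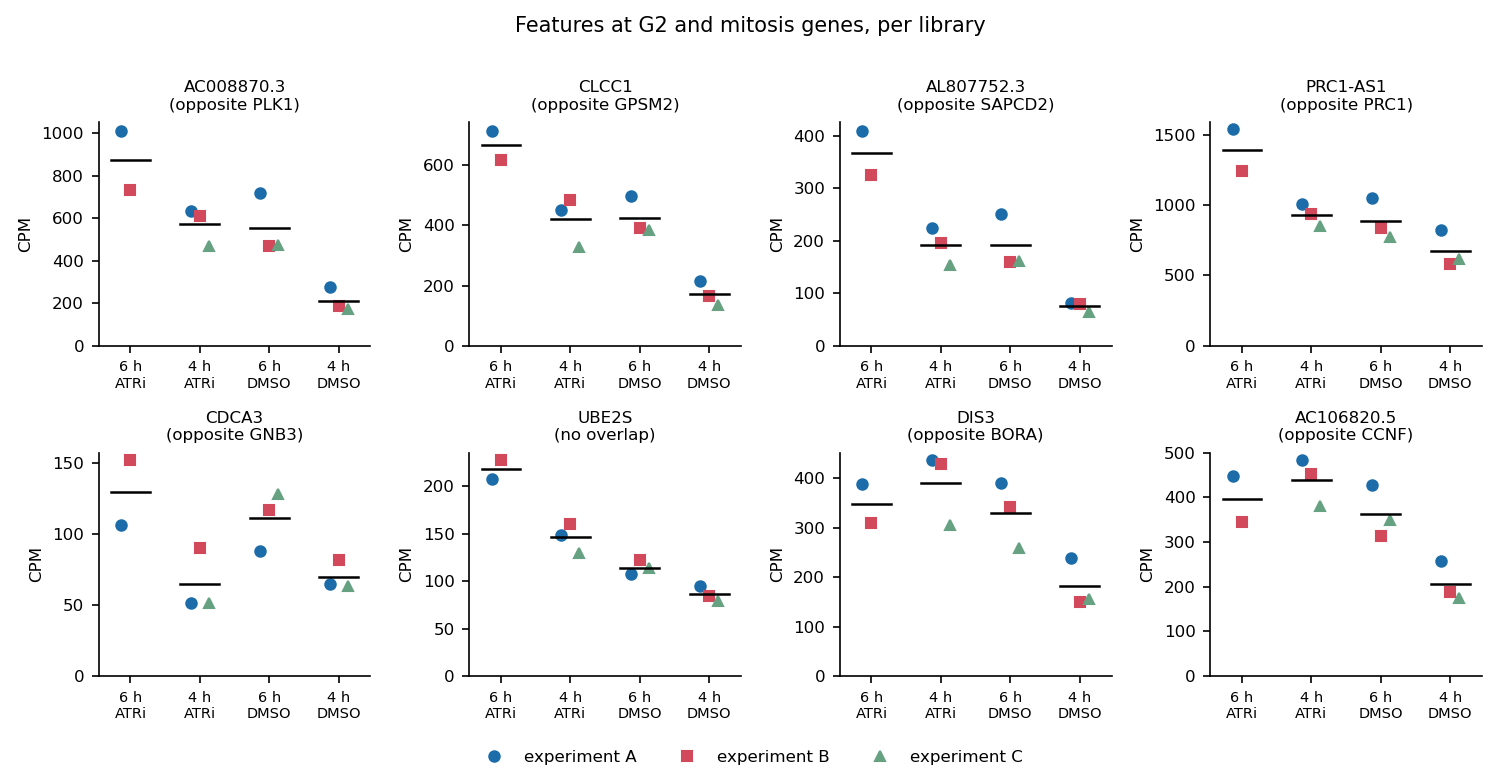
CPM of 8 features at G2 and mitosis genes in each library of 6h_ATRi, 4h_ATRi, 6h_DMSO and 4h_DMSO, with the mean of each group as a bar and the experiment as colour and shape. In the first 6 panels both 6h_ATRi libraries lie above all 4h_ATRi libraries, while for DIS3 and AC106820.5 these groups overlap, and the 4h_DMSO libraries of those lie below both.

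The passage under inhibition was set beside the passage in DMSO, which used other libraries. In DMSO 88 features rose (0.651%) and 53 fell (0.392%). These 141 calls became 68 without the A library of 6h_DMSO and 93 without the A library of 4h_DMSO. Of the calls, 46 were shared, all in the same direction, which is 27.5% of the calls under inhibition and 32.6% of those in DMSO. Across features of at least 50 CPM the log2 changes of the passages had a correlation of 0.54. The difference between the passages was tested itself: 0 features rose more under inhibition and 6 rose less or fell (0.0444%), with 784 features at an unadjusted p under 0.05 (edgeR). Without the block 0 were called, and with DESeq2 3 were called. The number called became 2 without the A library of 6h_DMSO, 3 without the B library of 4h_ATRi and 3 without the C library of 4h_DMSO. Of the 6 themselves, only DIS3 and AC106820.5 passed without the B library of 4h_ATRi.

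**Figure D3:**
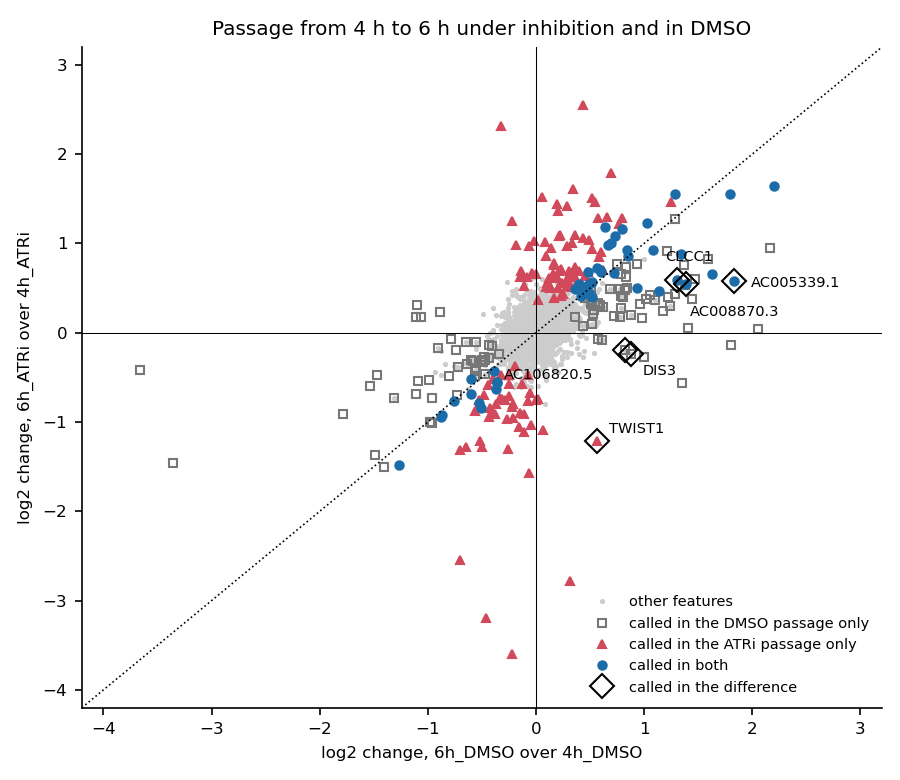
Log2 change from 4 h to 6 h under inhibition (vertical) against that in DMSO (horizontal), each point a feature of at least 50 CPM or a called one, with equal change on the dotted line. The 6 features called in the difference, ringed by diamonds, lie below the line.

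Of these 6 features, 4 lie opposite G2 and mitosis genes. DIS3, opposite BORA (the activator of Aurora A, which then activates PLK1) and PIBF1, had 388 and 310 CPM in 6h_ATRi, against 438, 429 and 306 CPM in 4h_ATRi, so that the times overlapped (log2 -0.24 ± 0.12, adjusted p = 0.491, edgeR). In DMSO DIS3 had 391, 342 and 259 CPM at 6 h, against 238, 150 and 156 CPM at 4 h, a log2 change of 0.87 ± 0.11 (adjusted p = 5.81e-09, edgeR). The difference between the passages was -1.12 ± 0.17 (adjusted p = 7.58e-06, edgeR). AC106820.5, opposite cyclin F (CCNF), an F-box protein that marks others for destruction in G2, had 448 and 345 CPM in 6h_ATRi, against 485, 453 and 381 CPM in 4h_ATRi. In DMSO it had 429, 313 and 350 CPM at 6 h, against 257, 188 and 174 CPM at 4 h. Its difference was -1.02 ± 0.16 (adjusted p = 7.58e-06, edgeR). Both features were called in the difference with any single library of the 4 released groups left out. With experiment B left out, DIS3 had an adjusted p of 0.0585 and AC106820.5 of 0.00964.

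For the PLK1 and GPSM2 partners both passages rose and the rise under inhibition was the smaller. AC008870.3, opposite PLK1, had 719, 471 and 475 CPM in 6h_DMSO, against 277, 185 and 175 CPM in 4h_DMSO, a log2 change of 1.38 ± 0.11, and the difference between the passages was -0.84 ± 0.16 (adjusted p = 0.00172, edgeR). CLCC1, opposite GPSM2, changed by 1.31 ± 0.11 in DMSO, and the difference was -0.72 ± 0.16 (adjusted p = 0.0219, edgeR). For both, the libraries of 4h_ATRi (471 to 632 CPM for AC008870.3) stood at or near the level of 6h_DMSO. The difference for CLCC1 was lost without either 6h_ATRi library, without the A library of 6h_DMSO and without the B library of 4h_ATRi, among others (adjusted p up to 0.337, edgeR), and that for AC008870.3 without the B library of either ATRi time, the A library of 6h_DMSO or the C library of 4h_DMSO (up to 0.0916, edgeR).

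AC005339.1, opposite TNFAIP8L1, had 175 and 163 CPM in 6h_ATRi, against 123, 121 and 73.6 CPM in 4h_ATRi. In DMSO it had 135, 97.4 and 72.3 CPM at 6 h, against 28.9, 28.2 and 27.1 CPM at 4 h. Its difference was -1.25 ± 0.24 (adjusted p = 0.00172, edgeR), and 0.218 without the A library of 6h_DMSO. TWIST1, a transcription factor of mesenchymal cells that overlaps AC003986.2, had 19.6 and 10.8 CPM in 6h_ATRi, against 41.0, 39.7 and 23.3 CPM in 4h_ATRi (log2 -1.22 ± 0.30, adjusted p = 0.0122, edgeR). In DMSO TWIST1 had 38.7, 15.6 and 34.0 CPM at 6 h, against 22.5, 16.3 and 19.7 CPM at 4 h. The difference of -1.78 ± 0.39 had an adjusted p of 0.0219 (edgeR), which ran up to 0.441 with 1 library left out.

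The G2 and mitosis list as a whole stood higher under inhibition at both times. Relative to 4h_DMSO, the median log2 level of its 124 genes was 0.78 in 6h_ATRi and 0.62 in 4h_ATRi, and 0.44 in 6h_DMSO. The median of its 55 opposite-strand features was 0.80 in 6h_ATRi, 0.47 in 4h_ATRi and 0.40 in 6h_DMSO. In the fit, 91 of the 124 genes were already at or above their 6h_DMSO level in 4h_ATRi, against 51.4% of all features. These 3 medians share the libraries of 4h_DMSO and are given as levels, with no test. In the passages themselves, 17 genes and 19 opposite-strand features of the list rose in DMSO, where 3 and 12 rose under inhibition. Over all features 0.651% rose in DMSO and 0.814% under inhibition, and 1.34% of overlapped features rose under inhibition. The share of overlapped features that rose in DMSO is not given here, so the 19 have no matching share. The median change was 0.17 for the genes under inhibition, against 0.44 in DMSO. The passage in DMSO has 3 libraries at 6 h and that under inhibition has 2. In the test of the difference itself, 0 of the 124 genes and 4 of the 55 opposite-strand features passed (edgeR), where 0.0444% of all features did.

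**Figure D4:**
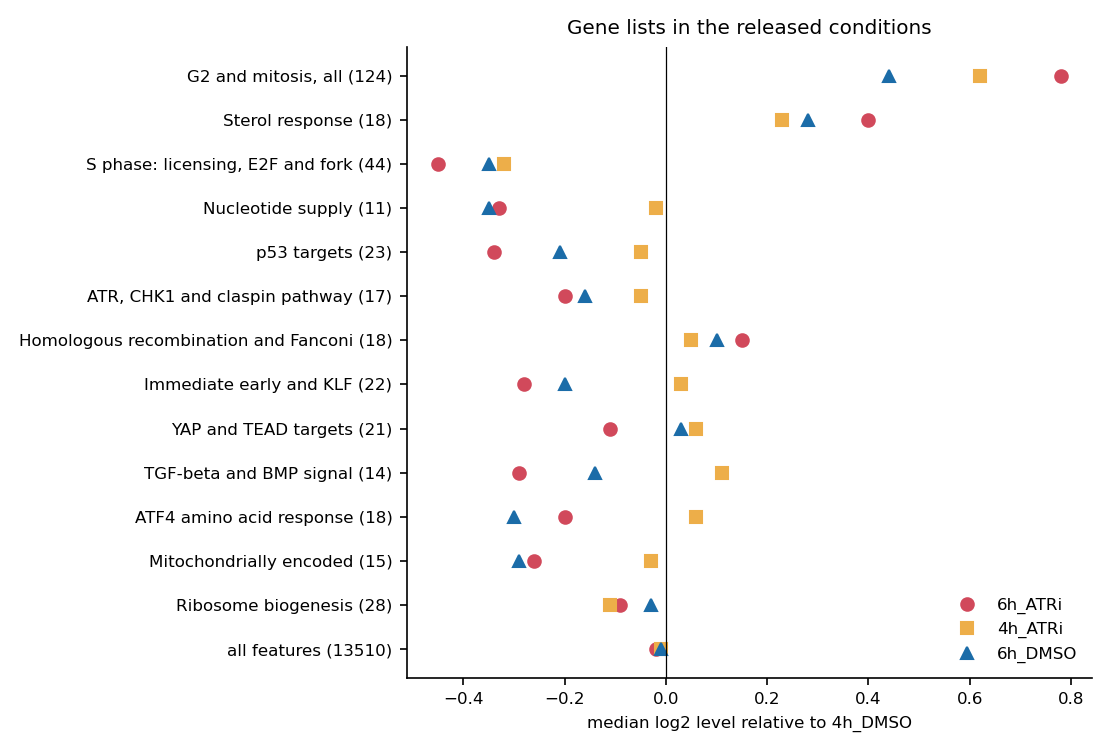
Median log2 level of 13 gene lists in 6h_ATRi, 4h_ATRi and 6h_DMSO relative to 4h_DMSO, from the fitted group levels, with the number of genes tested in brackets and all features in the last row. The whole G2 and mitosis list stands at 0.78, 0.62 and 0.44, and the S phase list at -0.45, -0.32 and -0.35.

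No S phase gene passed the test. Of 44 S phase genes tested (of 56), 0 passed the test in edgeR, 1 was higher and 4 were lower at an unadjusted p under 0.05, and 30 were negative, with a median log2 of -0.23 (-0.35 in DMSO). The experiments differed in sign: the median was -0.42 in experiment A and 0.14 in experiment B. CDC45, a part of the replicative helicase, had 1.68 and 1.62 CPM in 6h_ATRi, against 9.58, 2.74 and 7.12 CPM in 4h_ATRi (log2 -1.90 ± 0.68, adjusted p = 0.19, edgeR). E2F1 had -1.68, MCM6 -0.59, CDC6 -0.42 and RRM2 -0.03, all from few reads except RRM2. Cyclin E2 (CCNE2, overlaps INTS8 and AC087752.4) went the other way, with 45.9 and 47.4 CPM at 6 h, against 26.9, 33.8 and 34.7 CPM at 4 h, without overlap (log2 0.53 ± 0.21, adjusted p = 0.279, edgeR). Of the 20 features opposite S phase genes 1 rose, FBXO11, where 1.34% of all overlapped features rose. FBXO11, which overlaps AC079807.1 and the mismatch repair gene MSH6, had 86.2 and 71.7 CPM at 6 h, against 55.2, 42.4 and 58.4 CPM at 4 h (log2 0.65). The call of FBXO11 was lost with any 1 of the 5 libraries left out. Of 11 nucleotide supply genes 0 passed and 9 were negative. Thymidylate synthase (TYMS), which makes the nucleotide that thymidine supplies and overlaps ENOSF1 and TYMSOS, had 37.5 and 32.9 CPM at 6 h, against 52.0, 52.5 and 60.3 CPM at 4 h, with no overlap (log2 -0.66 ± 0.21, adjusted p = 0.0899, edgeR).

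The lists of the DNA damage response held 1 call among their genes, XRCC3. Of 23 p53 targets 0 passed, with a median log2 of -0.08, and CDKN1A, the cell cycle inhibitor, and MDM2, the ligase that removes p53 and overlaps AC025423.4 and the carboxypeptidase gene CPM, had 0.12 and -0.05. The member of that list with the smallest p was GADD45A, a stress gene, with 15.7 and 12.4 CPM at 6 h, against 28.3, 19.6 and 42.2 CPM at 4 h (log2 -0.86 ± 0.29, adjusted p = 0.149, edgeR). Of 17 genes of the ATR and CHK1 pathway 0 passed, with a median of -0.13. Of 18 genes of homologous recombination and Fanconi repair XRCC3 alone (1 gene) rose, where 0.814% of all features rose. XRCC3, a gene of homologous recombination that overlaps KLC1 on the other strand, had 415 and 448 CPM at 6 h, against 275, 349 and 278 CPM at 4 h (log2 0.56 ± 0.11, adjusted p = 9.16e-04, edgeR). Its call was lost without the A library of 6h_ATRi, at an adjusted p of 0.172 (edgeR).

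Of 18 sterol response genes 1 rose, the regulator SREBF1, and of 14 features opposite to them 2 rose, where 0.814% of all features and 1.34% of overlapped features rose. The synthesis genes HMGCS1 and IDI1 did not pass on their own strand (adjusted p 0.74 and 0.129, edgeR). AC114947.2, opposite HMGCS1 (the synthase ahead of HMG-CoA reductase), had 409 and 163 CPM in 6h_ATRi, against 175, 96.3 and 169 CPM in 4h_ATRi. The B library of 6 h lay inside the 4 h range, while each experiment went up within itself (log2 0.97 ± 0.14, adjusted p = 1.64e-07 with the block and 0.739 without it, edgeR). The call was lost without the A library of 6h_ATRi, at 0.127 (edgeR). IDI2-AS1, which overlaps IDI1 and IDI2, the isomerases of the same pathway, had 165 and 98.1 CPM at 6 h, against 95.8, 72.5 and 90.7 CPM at 4 h (log2 0.62). SREBF1, a transcription factor of lipid synthesis that overlaps RAI1, had 89.6 and 69.0 CPM at 6 h, against 50.2, 52.5 and 41.3 CPM at 4 h (log2 0.69 ± 0.18, adjusted p = 0.0176, edgeR). The calls of IDI2-AS1 and SREBF1 were each lost in 4 of the 5 leave-outs, both of them without the A library of either time and without the C library of 4h_ATRi. In DMSO AC114947.2, IDI2-AS1 and SREBF1 had log2 changes of 0.28, -0.15 and -0.14, and their differences between the passages did not pass (adjusted p 0.287 to 0.298, edgeR).

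Of 21 YAP and TEAD genes 2 fell, CCN2 and ANKRD1, where 0.422% of all features fell, and 18 were negative with a median of -0.12. CCN2, a secreted matrix protein and a classic target of the coactivator YAP, had 99.1 and 97 CPM in 6h_ATRi, against 183, 150 and 241 CPM in 4h_ATRi (log2 -0.91 ± 0.19, adjusted p = 0.00683, edgeR). The call of CCN2 was lost without either 6h_ATRi library or without the A library of 4h_ATRi, with an adjusted p of up to 0.419 (edgeR). AL133346.1, the feature opposite CCN2, had 1010 and 732 CPM at 6 h, against 1740, 1290 and 1810 CPM at 4 h (log2 -0.84 ± 0.11, adjusted p = 7.79e-08, edgeR), and its call held in every leave-out. In DMSO its change was -0.23 (adjusted p = 0.372, edgeR), and the difference between the passages did not pass (adjusted p = 0.0834, edgeR). ANKRD1, a muscle and stress gene that YAP also drives, has no overlapping gene. ANKRD1 had 106 and 143 CPM at 6 h, against 253, 150 and 275 CPM at 4 h, with 6 h below 4 h throughout (log2 -0.76 ± 0.18, adjusted p = 0.0152, edgeR). In experiment B alone its change was -0.07, and the call was lost without the A library of either time or the C library of 4 h (up to 0.555, edgeR).

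Of 6 features opposite immediate early genes 2 fell, HOOK2 and IER3-AS1, where 0.57% of all overlapped features fell. HOOK2 lies opposite JUNB, an AP-1 subunit of the immediate early response. HOOK2 had 80.1 and 86.2 CPM at 6 h, against 181, 130 and 206 CPM at 4 h (log2 -0.94 ± 0.16, adjusted p = 1.46e-05, edgeR). It changed by -0.87 in DMSO as well, and its adjusted p without the A library of 6h_ATRi was 0.0583. IER3-AS1, opposite the survival gene IER3, had a log2 change of -0.52 (adjusted p = 0.0323, edgeR) and kept its call only without the B library of 4h_ATRi among the 5 leave-outs. Of 22 immediate early genes 0 passed on their own strand in edgeR, and 18 were negative with a median of -0.27.

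Of 14 genes of TGF-beta and BMP signalling 2 fell, TWIST1 and GREM1, where 0.422% of all features fell, and the median log2 was -0.45. The call of TWIST1 was kept only without the C library of 4h_ATRi among the 5 leave-outs, with an adjusted p of up to 0.339 (edgeR). GREM1, a secreted antagonist of BMP, had 75.6 and 48.0 CPM in 6h_ATRi, against 116, 74.8 and 123 CPM in 4h_ATRi (log2 -0.69 ± 0.17, adjusted p = 0.0156, edgeR). The A library of 6 h lay at the level of the B library of 4 h, and each experiment fell within itself. GREM1-AS1, opposite GREM1, had 468 and 265 CPM at 6 h, against 649, 479 and 599 CPM at 4 h (log2 -0.68 ± 0.12, adjusted p = 2.78e-05, edgeR). In DMSO GREM1-AS1 fell by 0.60 on the log2 scale, and GREM1 had a change of -0.48 that did not pass (adjusted p = 0.0813, edgeR). GREM1-AS1 was lost without the B library of 6h_ATRi (0.272), and GREM1 was lost in 4 of 5 leave-outs.

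**Figure D5:**
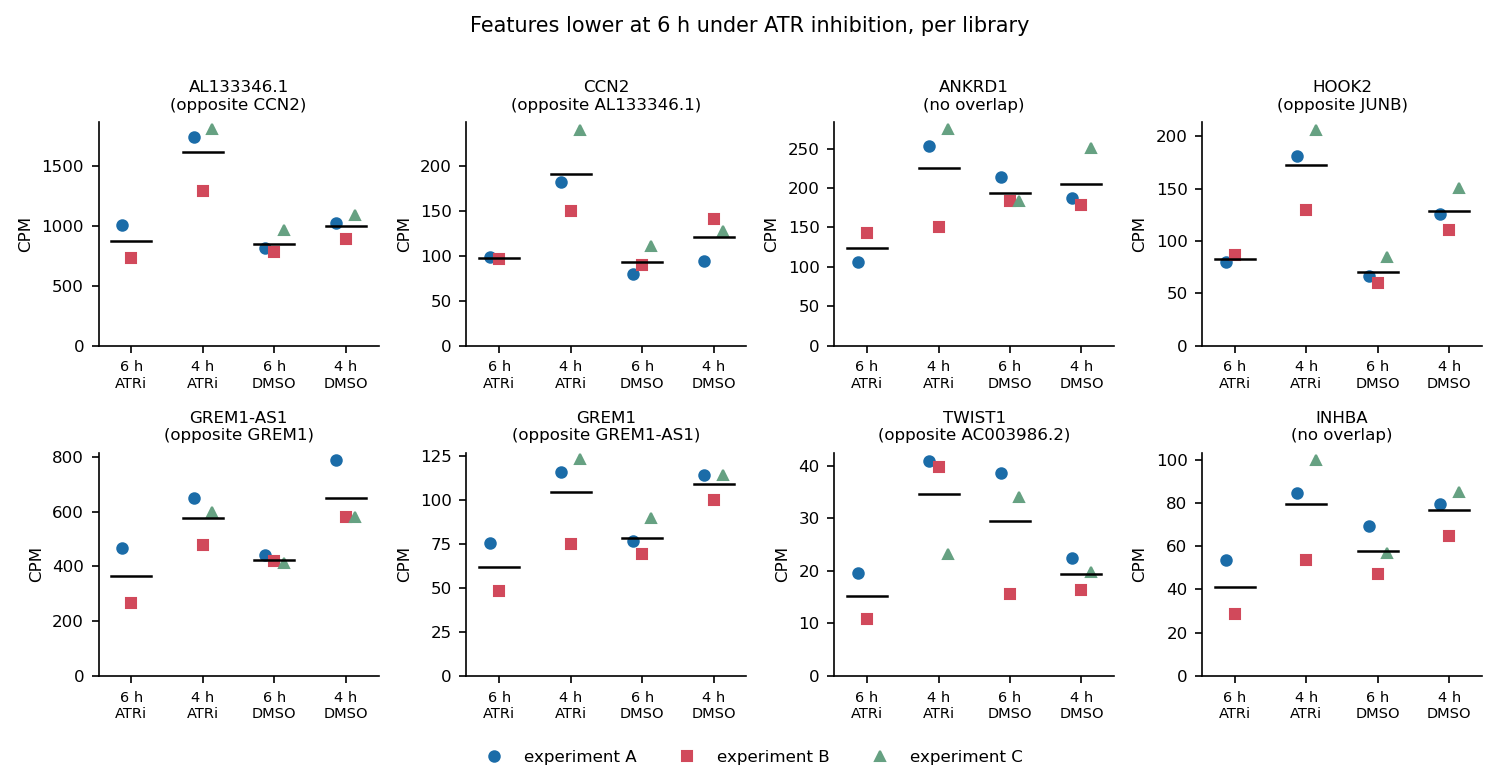
CPM of 8 features lower at 6 h under inhibition, in each library of 6h_ATRi, 4h_ATRi, 6h_DMSO and 4h_DMSO, with group means as bars and experiments as colours and shapes. AL133346.1 stands at 1290 to 1810 CPM in 4h_ATRi and at 732 and 1010 CPM in 6h_ATRi.

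The remaining lists gave few calls. Of 18 ATF4 targets 0 passed, with a median of -0.28. Of their 12 opposite-strand features 1 fell, where 0.57% of all overlapped features fell: AC006030.1, opposite the folate enzyme MTHFD2 (log2 -0.42). Of these 12 features 11 were negative. Of 8 NF-kB genes 1 fell, where 0.422% of all features fell: NFKB1, from 4 and 1 reads at 6 h, against 20, 17 and 15 reads at 4 h. Ribosome biogenesis held 0 calls among 28 genes. Among the 15 features opposite to them GLT8D1 (opposite GNL3 and SPCS1, log2 0.76) rose, and ERCC1 (opposite POLR1G, log2 -0.47) and AL355490.2 (opposite RRP12, log2 -0.75) fell. Of all overlapped features 1.34% rose and 0.57% fell. The calls of AC006030.1, NFKB1, GLT8D1, ERCC1 and AL355490.2 were each lost without the A library of 4h_ATRi. Each was also lost without the B library of 6h_ATRi, and all but GLT8D1 without its A library. NFKB1 and GLT8D1 were lost without the C library of 4h_ATRi as well, and AL355490.2 without the B library of 4h_ATRi. Heat shock (17 genes), mitochondrially encoded (15), FOXO (9), interferon (7) and histone (6) lists held 0 calls in edgeR, at medians of 0.00, -0.22, -0.31, 0.25 and -0.06. The mitochondrial values are uncertain as to strand.

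By size, the largest fitted rises and falls among calls with both experiments in the same direction came from features of few reads. The rises were led by RETREG1, a receptor for autophagy of the endoplasmic reticulum that overlaps RETREG1-AS1, with 8.40 and 9.16 CPM at 6 h, against 1.37, 0.912 and 3.32 CPM at 4 h. PROZ (overlaps AL137002.1), AP1S2, VWA3B, MIR4271 (overlaps C3orf62), SNRK, NPPA (overlaps CLCN6), KCNIP2-AS1 (overlaps KCNIP2), NCOA5 and SGPP2 made up the other 9, at 8.62 to 33.4 CPM in 6h_ATRi. SNRK, a kinase related to AMPK that overlaps SNRK-AS1, had 26.9 CPM in both 6 h libraries, against 6.38, 11.9 and 9.49 CPM at 4 h (log2 1.56 ± 0.32), and was lost without the A library of 6h_ATRi (0.192). The falls were NEDD1, IQCM, GTF2H3 (overlaps EIF2B1), NFKB1, RIN2 (overlaps AL121761.1), MSC-AS1, LRRC8C-DT (overlaps LRRC8B), FLG (overlaps FLG-AS1), PHB1P9 and ENSG00000203691. MSC-AS1, which overlaps TRPA1 and MSC, had 18.5 and 25.9 CPM in 6h_ATRi, against 67.5, 55.2 and 65.5 CPM in 4h_ATRi, with wide separation (log2 -1.48 ± 0.24, adjusted p = 5.03e-06, edgeR). Its adjusted p was 0.0789 without the A library of 6h_ATRi. Of the 52 named features that were called, 5 kept the call in every leave-out and 8 in none. The call was lost for 42 without the A library of 6h_ATRi, for 35 without its B library, for 37 without the A library of 4h_ATRi, for 14 without its B library and for 27 without its C library.

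Some features were chosen after their values were seen, for the smallest p or for having no overlap. NAV2-AS2, opposite the neuronal guidance gene NAV2, had 610 and 557 CPM in 6h_ATRi, against 293, 250 and 220 CPM in 4h_ATRi, a 2.27-fold difference (log2 1.18 ± 0.11, adjusted p = 1.48e-15 with the block and 0.0128 without it, edgeR). TCP11L1, opposite the cleavage factor CSTF3, had 207 and 167 CPM at 6 h, against 90.7, 96.7 and 85.0 CPM at 4 h (log2 1.01). HSPA12A-AS1, which overlaps HSPA12A and C10orf82, had 101 and 111 CPM at 6 h, against 57.9, 48.4 and 45.1 CPM at 4 h (log2 1.04). CCDC85B, which has no overlap, had 2030 and 2070 CPM at 6 h, against 1240, 1320 and 1330 CPM at 4 h, with little spread inside either time (log2 0.67 ± 0.09). AC125611.3, opposite the tubulin TUBA1C, had 12500 and 10100 CPM at 6 h, against 8630, 7410 and 6730 CPM at 4 h (log2 0.55 ± 0.09). FAM166A, opposite the tubulin TUBB4B, had 1330 and 1190 CPM at 6 h, against 1020, 888 and 805 CPM at 4 h (log2 0.48). TUBA1C and TUBB4B encode the building blocks of microtubules.

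On the falling side of that choice, C10orf55, opposite urokinase (PLAU), had 1530 and 1670 CPM in 6h_ATRi, against 2450, 2250 and 2340 CPM in 4h_ATRi (log2 -0.55 ± 0.10, adjusted p = 2.46e-04, edgeR). LIF-AS2, opposite the cytokine LIF, had 142 and 114 CPM at 6 h, against 260, 160 and 260 CPM at 4 h (log2 -0.77). NUDT6, opposite the growth factor FGF2, and TPM1-AS, opposite tropomyosin TPM1, had log2 changes of -0.56 and -0.75. INHBA, which encodes a subunit of activin and has no overlap, had 53.7 and 28.6 CPM at 6 h, against 84.8, 53.8 and 99.7 CPM at 4 h (log2 -0.90 ± 0.20, adjusted p = 0.00284, edgeR). Both 6 h libraries were below all 4 h libraries for INHBA, though the A library of 6 h and the B library of 4 h were nearly equal. Of the 167 calls, 29 were on features with no annotated overlap, 14 higher and 15 lower (0.223% and 0.239% of such features). On overlapped features 94 were higher and 40 lower (1.34% and 0.57%). This difference in balance was not tested.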

How the data were processed

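RNA was measured in RPE-1 cells by stranded mRNA sequencing of Trizol RNA, per the labels' protocols. The authors deposited read counts per feature, whole numbers that were not normalised. TopHat, HTSeq and DESeq2 with GRCh37 are named in the submitters' processing notes; their versions, the annotation and how strand was handled were not given in the sources used here. The authors' deposited table of comparisons holds log2 fold changes and adjusted p-values. Columns lettered A, B and C stand for 3 experiments that the design text calls independent.

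All 17 libraries (1758747 to 2357561 counts) were fitted together in edgeR 4.0.16 (R 4.3.3) by glmQLFit (robust) and glmQLFTest after TMM scaling. The terms were condition and experiment letter. Features were kept by filterByExpr (minimum count 10, minimum total 15). The fit had 9 residual degrees of freedom and a coefficient of variation between libraries of 0.119, against 11 and 0.23 without the block. The 2 libraries at 6 h limit the precision, and SE come from the fit. The code was tested on simulated data. CPM use TMM-scaled totals, except those of the tissue and cell type markers, which use unadjusted totals. Counts carry no molecular identifiers.

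Deviations from the condition means correlated between libraries of the same letter, at values of 0.349 (A) and 0.465 (B) for 6h_ATRi and 4h_ATRi, against at most 0.244 for other letters. With 2 libraries in 6h_ATRi, its A and B deviations are exact opposites. A positive value for 1 of them with any library therefore fixes an equal negative value for the other. The A and B values are not separate checks. Over 40 same-letter pairs the correlation ran from 0.081 to 0.536, and it was the highest in 30. Every pair of letter B was highest. The exceptions were pairs of letter A or C that involved arrested or cycling cells, such as 6h_DMSO and cycling cells of C (0.081, against 0.175 for another letter). The letters thus set B apart more than they separate A from C. The block was set in the design, since the comparison is paired by experiment, and not chosen from these correlations.

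Names and opposite-strand overlaps come from the GENCODE annotation of GRCh38, which matched 55951 of 60252 IDs, and no coordinates were taken from it. Named features were the 10 largest calls in each direction with the same sign in both experiments, the called members of gene lists (at most 4 a direction, otherwise the member with the smallest p in the median's direction), a panel of 28 genes, the features called in the difference, and their opposite partners. Members and lists were chosen with earlier results of these data known. Alternatives were the fit without the block, DESeq2 1.42.0, its size factors, other count filters, released libraries only, experiment B left out and each library left out.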

Additional observations from a re-analysis of the deposited data

Results flagged for a closer look

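For 6 features the change from 4 h to 6 h differed between inhibition and DMSO in the test of the difference itself (edgeR, with the experiment as a block). The differences in log2 change, inhibition minus DMSO, were -1.12 for DIS3 (opposite BORA), -1.02 for AC106820.5 (opposite CCNF), -1.25 for AC005339.1 (opposite TNFAIP8L1), -0.84 for AC008870.3 (opposite PLK1), -1.78 for TWIST1 and -0.72 for CLCC1 (opposite GPSM2). For AC005339.1, AC008870.3 and CLCC1 both passages rose and the rise was smaller under inhibition. For TWIST1 the change was -1.22 under inhibition and 0.56 in DMSO, and the change in DMSO did not pass. All 6 had an adjusted p of 1 in the fit without the block.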

How the results depend on the processing

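The pairing by experiment had the largest effect. With no replicate block the calls were 4 for the passage under inhibition, 11 for that in DMSO and 0 for the difference, against 167, 141 and 6 with the block. Fitting the released libraries only gave 326, 345 and 25 calls. DESeq2 gave 125, 108 and 3, and leaving out experiment B gave 99 for the passage under inhibition. DESeq2's size factors (162, 147 and 6), no filter on low counts (145, 132 and 8) and a minimum count of 30 (169, 173 and 6) moved the counts by less than 1.5 times. With 1 library left out the calls ran from 36 to 194 under inhibition, from 68 to 120 in DMSO and from 2 to 7 in the difference; a group left with 1 library is then assumed to vary like the others. The cause of these shifts was not tested. No direction of the 52 named calls reversed under the alternatives run; other calls were not followed one by one. At about 2 reads per CPM, values of a few CPM rest on few reads, and errors from the fit do not cover the strand of a read.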

Other observations

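Of the calls without an annotated overlap, 3 that were lower at 6 h under inhibition are given here, chosen after their values were seen. CCDC80, a secreted matrix protein, had 186 and 204 CPM in 6h_ATRi, against 255, 255 and 334 CPM in 4h_ATRi (log2 -0.47 ± 0.13, adjusted p = 0.0353, edgeR). ABL1, a kinase that acts on actin, had 33.0 and 42.6 CPM at 6 h, against 62.0, 55.7 and 81.2 CPM at 4 h (log2 -0.74, adjusted p = 0.0392, edgeR). RHOB, a small GTPase, had 49.8 and 13.5 CPM at 6 h, against 65.2, 44.7 and 79.7 CPM at 4 h, where the A library of 6 h was above the B library of 4 h (log2 -0.95, adjusted p = 0.0142, edgeR). In DMSO their log2 changes were -0.07, 0.02 and -0.21, and none of the 3 differences between the passages passed (adjusted p 0.635 to 0.786, edgeR).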
